A study of Mus musculus with 9 samples.

Results

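Expression of 7 ubiquitin ligase genes linked to muscle wasting (Cblb, Nedd4, Traf6, Stub1, Mul1, Asb2 and Ube4b) was examined in C2C12 myotubes, the multinucleated cells formed by differentiation of a mouse myoblast line. The members were chosen by gene symbol, and all 7 were found among the 10716 genes of the deposited table. The 9 libraries form 3 groups of 3 after 24 h of treatment: vehicle, 50 µM dexamethasone, and 50 µM dexamethasone plus 10 µM THSG. Dexamethasone, a synthetic glucocorticoid, serves in culture as a model of steroid-induced atrophy. THSG is not spelled out in the labels; the abbreviation usually means tetrahydroxystilbene glucoside, a polyphenol from plants. There was no group with THSG by itself, all groups are the 1 cell line, and the labels do not say whether replicates were separate cultures, so p-values measure only the spread between these libraries.

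Ubiquitin ligases choose the proteins to which ubiquitin is attached, and chains of ubiquitin mark many of these proteins for the proteasome. In wasting muscle, ligases act at several points, from breakdown of the contractile apparatus to the dampening of growth signals. Cbl-b, encoded by Cblb, is a RING ligase known in unloaded muscle for the degradation of the insulin receptor substrate IRS1. Nedd4 encodes a HECT ligase, a type that takes ubiquitin onto its own catalytic cysteine before passing it on. Traf6 encodes a RING ligase that builds non-degradative chains in NF-kB signalling. Stub1 encodes CHIP, a U-box ligase that binds the chaperones HSP70 and HSP90, and Ube4b a U-box enzyme that lengthens ubiquitin chains. Mul1 encodes a ligase of the mitochondrial outer membrane. ASB2, encoded by Asb2, is the substrate-binding part of a cullin 5 ligase known to act on filamins and desmin.

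The values are taken to be FPKM, that is, fragment numbers scaled to transcript length and library size, because they are fractional although the table is named as counts. If that unit is right, levels may be compared between genes, and the ranks, shares and ratios below rest on it. The unit was not tested. Between libraries, the balance of higher and lower genes depended on the scaling, as given below. The summed values ran from 400218 to 422379 FPKM per library, every value exceeded 1 FPKM, and read depth is unknown. The first principal component (66% of the variance) separated the 3 vehicle libraries from the 6 libraries with dexamethasone, and on the second (7.7%) dexamethasone replicate 3 stood at -14.6 while the others lay between -4.49 and 7.29. All 17 myotube markers were in the table, with the actin gene Acta1 at 3030 ± 240 FPKM in vehicle (SD, n = 3); their sum ran from 7755 to 8400 FPKM in vehicle, 8697 to 9343 with dexamethasone and 9208 to 9395 with both agents, and 10 were called higher and 2 lower with dexamethasone. Of the reserve cell markers 9 of 10 were present, with sums of 141 to 146, 117 to 132 and 131 to 134 FPKM in the same order, and 2 called higher and 4 lower. Of 8 immune markers 1 was in the table, and of 5 endothelial markers 0. The 6 fibroblast markers present summed to 1037 to 1108 FPKM in vehicle, 571 to 585 with dexamethasone and 607 to 609 with both agents; 5 of the 6 were called lower and 1 higher with dexamethasone. The part of these shifts in the ligase results was not tested, and in such bulk RNA fewer cells of a type and less RNA per cell cannot be told apart.

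Promoter sequence is shown first for the 2 members that changed with dexamethasone, Cblb and Asb2. Sequences are from RefSeq on GRCm38.p6, an earlier build than the authors' GRCm39, and all 7 members were matched, to 9 start sites. The 250 bases before each start were searched on both strands for the palindromic glucocorticoid response element and for a single arm of it (AGAACA). The forkhead letters GTAAACA and CANNTG, the E-box of myogenic and other bHLH factors, were searched for as well. Of 32851 windows in the RefSeq table, 0.387% held the palindrome, 16.1% the single arm, 3.17% the forkhead letters and 66.2% an E-box. None of the 9 member windows held the palindrome or the forkhead letters, which says only that these letters are not in these windows.

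Asb2 has 2 start sites on the minus strand of chromosome 12, and both upstream windows are printed because the gene rose. Capitals mark matches, which are E-boxes 36 to 31 and 23 to 18 bases before the upstream start; the window of the downstream start held no match.
Asb2, upstream start, chr12:103356002-103356251: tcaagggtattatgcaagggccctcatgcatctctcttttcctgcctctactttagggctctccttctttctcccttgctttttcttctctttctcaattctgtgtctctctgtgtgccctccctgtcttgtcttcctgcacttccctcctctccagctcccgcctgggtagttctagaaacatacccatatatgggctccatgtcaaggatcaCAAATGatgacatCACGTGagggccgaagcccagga
Asb2, downstream start, chr12:103338391-103338640: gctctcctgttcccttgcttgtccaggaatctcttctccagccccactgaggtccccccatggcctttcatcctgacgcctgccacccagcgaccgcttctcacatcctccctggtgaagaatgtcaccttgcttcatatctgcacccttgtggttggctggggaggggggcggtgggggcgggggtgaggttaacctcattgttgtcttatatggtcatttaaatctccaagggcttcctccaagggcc

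For Cblb a short stretch around its only match, an E-box 171 to 166 bases before the start, is printed, since the annotation places the whole window in the first exon of a longer transcript. For Nedd4 the stretch around the only single arm of the glucocorticoid element among the 9 windows is printed (216 to 211 bases before its downstream start, in reverse orientation), since this member did not pass the test.
Cblb, plus strand, chr16:52031368-52031393: agttcttctcCAAGTGggacgcagtg
Nedd4, plus strand, chr9:72693072-72693097: agaagcttgtTGTTCTtgcgttactc
A match in these windows is a description of letters and not a binding site.

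In vehicle-treated myotubes the ligase genes spanned a wide range of levels. Nedd4 was the highest at 218 ± 3.6 FPKM (SD, n = 3), above 97.6% of all genes of the table. Stub1 followed at 53.3 ± 2.9 FPKM. Ube4b at 18.1 ± 1.4 and Mul1 at 16.1 ± 1.8 FPKM were next, and their libraries overlapped (16.5 to 19.3 and 14.4 to 18.0 FPKM). Cblb stood at 9.42 ± 0.72 and Traf6 at 5.34 ± 0.21 FPKM. Asb2, at 1.55 ± 0.087 FPKM, exceeded only 1.19% of genes and lay close to the lowest value that the table holds. Nedd4 alone made up 66.4% to 68.6% of the summed level of the 7 genes in the vehicle libraries.

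With dexamethasone the mean of Cblb (22.3 ± 0.50 FPKM) lay above those of Mul1 (19.8 ± 2.0) and Ube4b (18.8 ± 0.86), which again overlapped each other. The ratio of Cblb to Ube4b was 0.456 to 0.617 in the vehicle libraries, 1.15 to 1.25 with dexamethasone and 1.1 to 1.15 with both agents. Its share of the 7 summed genes went from 2.72% to 3.17% in vehicle to 6.29% to 6.66% with dexamethasone, and was 5.97% to 6.74% with both. Cblb thereby moved from above 40.4% of genes to above 70.2%. The sum of the 7 genes ran from 320 to 323 FPKM in vehicle, from 339 to 347 with dexamethasone and from 334 to 346 with both.

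**Figure D1:**
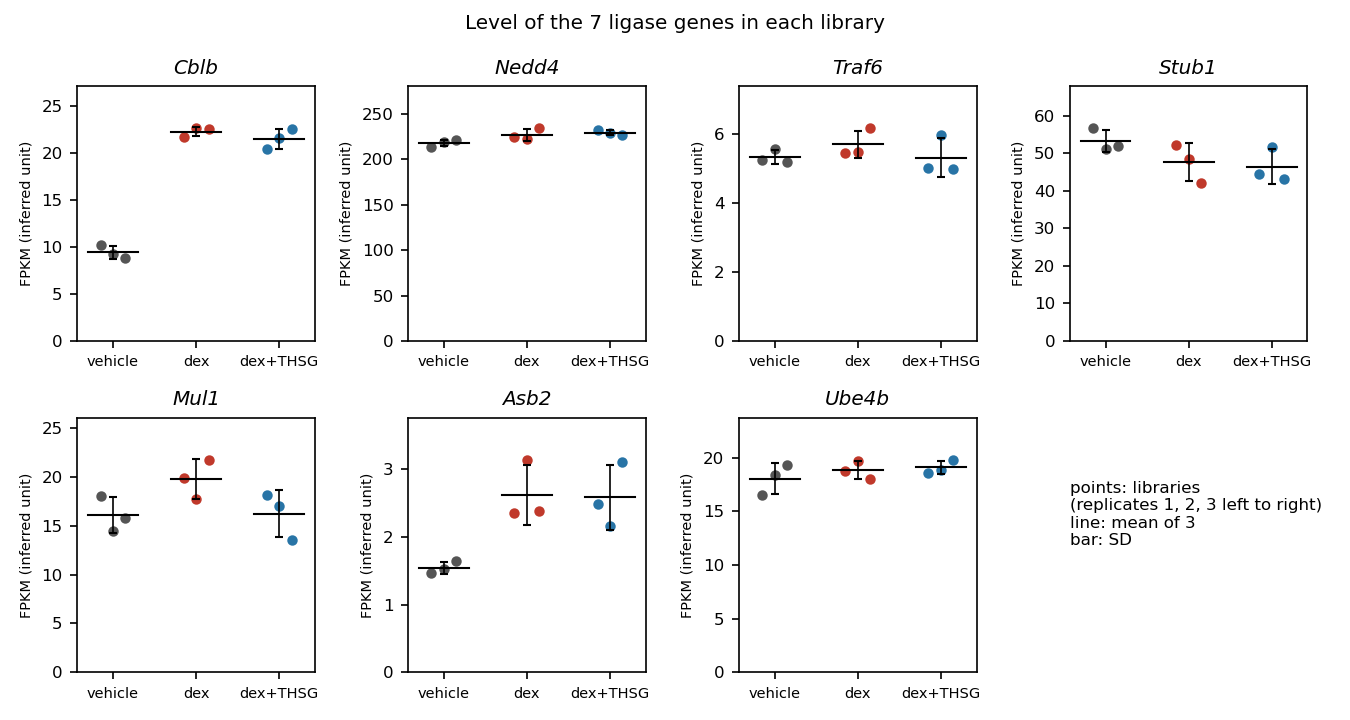
Level of each gene in FPKM (vertical axes, linear, from 0) in the 3 libraries of each group (points), with the mean (line) and SD (bar). Cblb and Asb2 stand higher in all 6 libraries with dexamethasone than in vehicle, Nedd4 is separated by only a few FPKM, and the other 4 genes overlap between vehicle and dexamethasone.

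The comparison of dexamethasone with vehicle asked which of these ligases respond to the glucocorticoid. Cblb and Asb2 rose, and the other 5 genes did not pass the test. Of the 7 members 2 were called higher and 0 lower (28.6% called), against 33.6% of all 10716 genes called in either direction, 12.7% higher and 20.9% lower, so the share of members called was near the background. Of all calls 37.8% were higher, a split that moved to 49.6% with median-ratio scaling and to 51.9% with the GC and length trends removed. The members' median log2 difference was 0.09 and that of all genes -0.05. A call is an adjusted p under 0.05 by limma, a linear model fitted to log2(FPKM + 0.1) over all genes, with Benjamini-Hochberg adjustment.

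Cblb measured 10.2, 9.27 and 8.79 FPKM in the vehicle libraries and 21.7, 22.6 and 22.5 FPKM with dexamethasone. All dexamethasone libraries lay far above all vehicle libraries. The level was 2.35-fold higher, a log2 difference of 1.23 (SE 0.0673, 95% interval 1.09 to 1.38, limma adjusted p = 8.08e-08). Of all genes of the table, 85 had a larger log2 rise. The 3 dexamethasone libraries differed little among themselves, with a coefficient of variation of 2.26% against 7.64% in vehicle.

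Asb2 measured 1.47, 1.53 and 1.64 FPKM with vehicle and 2.35, 3.14 and 2.38 FPKM with dexamethasone. The groups did not overlap, and dexamethasone replicate 2 was the highest library. The level was 1.64-fold higher, a log2 difference of 0.72 (SE 0.162, interval 0.36 to 1.07, limma adjusted p = 0.00522). At this low level the added 0.1 FPKM slightly understates the change, and without it the difference was 0.75. Asb2 remained among the lowest 8.45% of genes.

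Mul1 measured 18.0, 14.4 and 15.8 FPKM with vehicle and 19.9, 17.7 and 21.7 FPKM with dexamethasone. The groups overlapped, since vehicle replicate 1 exceeded dexamethasone replicate 2. The log2 difference was 0.30 (interval 0.04 to 0.55) with an unadjusted p = 0.0272 and a limma adjusted p = 0.072, which misses the threshold. Mul1 passed it under 9 of 20 other settings, among them median-ratio scaling (0.34, limma adjusted p = 0.0382) and removal of trends over GC content and transcript length (0.40, adjusted p = 0.0218). It also passed without dexamethasone replicate 2 (0.38, adjusted p = 0.0473), without vehicle replicate 1 (0.38, adjusted p = 0.0432) or without dexamethasone plus THSG replicate 3 (0.30, adjusted p = 0.0339). Without dexamethasone replicate 3, the library that stood apart and had 14% of its summed values from mitochondrial genes against 10.5% to 12% in the others, the difference was 0.23 (adjusted p = 0.219); that of Cblb was then 1.23 and that of Asb2 0.78, both still called.

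Nedd4 measured 214, 219 and 221 FPKM with vehicle and 225, 222 and 234 FPKM with dexamethasone. The groups did not overlap, but the log2 difference was only 0.06 (interval -0.03 to 0.14, limma adjusted p = 0.272). Its libraries agreed more closely than those of nearly all other genes: only 1.13% of genes had a smaller residual SD than its 0.0294 on the log2 scale. Over all genes, groups did not overlap in 45.9%, and 43.5% had an unadjusted p under 0.05; among the 7 members these numbers were 3 (Cblb, Asb2 and Nedd4) and 3 (Cblb, Asb2 and Mul1).

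Stub1 measured 56.6, 51.2 and 52.0 FPKM with vehicle and 52.1, 48.6 and 42.2 FPKM with dexamethasone. It was the only member with a lower mean, and the groups overlapped. The log2 difference was -0.17 (interval -0.35 to 0.02, limma adjusted p = 0.159), and with the GC and length trends removed it was 0.03, where the direction turned. The annotated transcript of Stub1 is the shortest and most GC-rich of the 7, at 1803 bases and 60.8% GC. Traf6 measured 5.25, 5.58 and 5.19 FPKM with vehicle and 5.46, 5.49 and 6.17 FPKM with dexamethasone, overlapping, with a log2 difference of 0.09 (interval -0.12 to 0.31, limma adjusted p = 0.506). Ube4b measured 16.5, 18.4 and 19.3 FPKM with vehicle and 18.8, 19.7 and 18.0 FPKM with dexamethasone, also overlapping, with a difference of 0.06 (interval -0.09 to 0.21, limma adjusted p = 0.528). For these 3 genes and Nedd4 the intervals leave room for a change of at most 0.35 in either direction on the log2 scale. Only Cblb and Asb2 held their call under every alternative in which they were tested, with log2 differences from 1.16 to 1.29 and from 0.50 to 0.88.

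**Figure D2:**
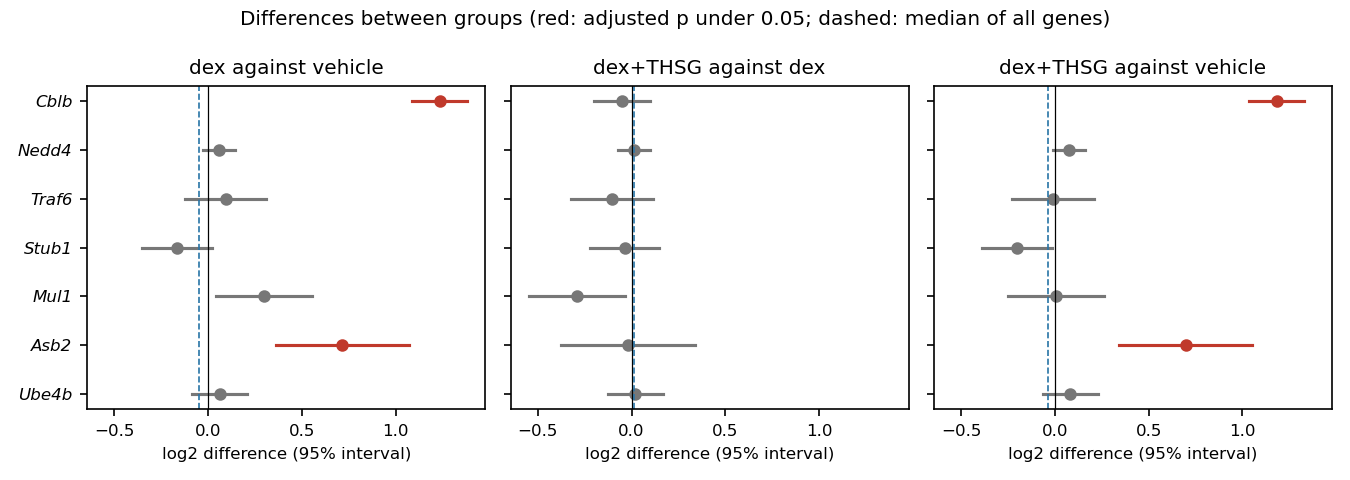
Log2 difference of each gene (points) with its 95% interval (lines) in the 3 comparisons, on 1 shared horizontal scale. Cblb and Asb2 (red) are called in both comparisons with vehicle, and none of the 7 is called when THSG plus dexamethasone is set against dexamethasone.

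Whether THSG changed these levels was read from the libraries with both agents against those with dexamethasone. None of the 7 members was called, and by limma none of all 10716 genes was (0%, with 0 higher and 0 lower), with a smallest adjusted p of 0.227. At an unadjusted p under 0.05 there were 1 member and 7.25% of all genes, and groups did not overlap for 0 members and 13.3% of all genes. Cblb measured 20.4, 21.6 and 22.5 FPKM with both agents, and the groups overlapped. Its log2 difference was -0.05 with an interval from -0.20 to 0.10 (limma adjusted p = 0.889). Asb2 measured 2.49, 2.17 and 3.11 FPKM with both agents, again overlapping, and differed by -0.02 (interval -0.37 to 0.34, adjusted p = 0.986). The rise of Cblb with dexamethasone, 1.23, thus lies far outside the interval for the THSG difference. For Asb2 the lower end of the interval, -0.37, is to be read beside a rise of 0.72.

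Mul1 was the 1 member with an unadjusted p under 0.05. It measured 18.1, 17.0 and 13.5 FPKM with both agents against 19.9, 17.7 and 21.7 FPKM with dexamethasone, and 1 library with THSG exceeded 1 without it. The log2 difference was -0.29 (interval -0.55 to -0.04, unadjusted p = 0.029, limma adjusted p = 0.676), and the adjusted p ran from 0.555 to 0.989 over 20 alternatives. Without dexamethasone plus THSG replicate 3, the lowest library at 13.5 FPKM, the difference was -0.17, and without dexamethasone replicate 3 it was -0.22; over all single omissions it ran from -0.38 to -0.17. Among all genes, 163 had a more negative difference. Nedd4 measured 232, 229 and 227 FPKM with both agents (0.02, interval -0.07 to 0.10). Traf6 measured 5.01, 5.97 and 4.98 FPKM (-0.10, interval -0.32 to 0.11), Stub1 44.5, 51.7 and 43.1 FPKM (-0.04, interval -0.22 to 0.15) and Ube4b 18.6, 18.9 and 19.8 FPKM (0.02, interval -0.13 to 0.17). All 4 overlapped with the dexamethasone libraries.

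Dexamethasone plus THSG against vehicle shares its libraries with both other comparisons, so its values stand beside them and are not a second test. Again 2 of 7 members were called higher and 0 lower, against 29.1% of all genes in either direction, 12.1% higher and 17% lower. Cblb was 2.27-fold higher (log2 difference 1.18, SE 0.0673, limma adjusted p = 1.11e-07) and Asb2 1.62-fold (0.70, SE 0.162, adjusted p = 0.00677). Mul1 differed by 0.00 (interval -0.25 to 0.26), where dexamethasone alone had given 0.30. Stub1 differed by -0.20 (interval -0.39 to -0.02, unadjusted p = 0.0356, limma adjusted p = 0.0984), and its call passed without dexamethasone plus THSG replicate 2 (-0.28, adjusted p = 0.0311). Nedd4 differed by 0.07 (adjusted p = 0.186), and was called once the GC and length trends were removed (0.10, adjusted p = 0.0234). Groups did not overlap for 3 members (Cblb, Asb2 and Nedd4) and 43.1% of all genes, and 3 members (Cblb, Asb2 and Stub1) and 39.1% of all genes had an unadjusted p under 0.05.

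The relatives of each ligase were counted to place its change. Among all genes 12.7% were called higher and 20.9% lower with dexamethasone, and the counts below are to be read beside these shares. Of the 3 CBL genes in the table (of 4 listed), Cblb was the 1 called with dexamethasone. Cbl, its closest relative, measured 7.06 ± 0.39 FPKM with vehicle and 8.28 ± 0.63 with dexamethasone (n = 3 each). Its log2 difference was 0.22 (adjusted p = 0.0579), and it was called under 4 of 20 alternatives. The level of Cblb exceeded that of Cbl by 1.19 to 1.42 times in vehicle, by 2.55 to 2.85 times with dexamethasone and by 2.54 to 2.96 times with both agents. The groups did not overlap in this ratio between vehicle and either group with dexamethasone.

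Among 8 of 9 NEDD4-family HECT ligases in the table, 1 was called higher and 0 lower. That gene was Nedd4l, which is known for sodium channel turnover, at 11.8 ± 0.80 FPKM with vehicle and 14.0 ± 1.3 with dexamethasone (log2 difference 0.24, limma adjusted p = 0.0354). Its call ended under 4 of 20 alternatives. Wwp1 (0.17, adjusted p = 0.15) and Smurf1 (0.13, adjusted p = 0.157) did not pass. Nedd4 exceeded Nedd4l by 15.1 to 19.2 times over the 9 libraries.

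NEDD4 ligases are recruited and activated by adaptors with PY motifs, and of 8 measured adaptors, 2 were higher and 1 lower with dexamethasone. The arrestin-domain gene Arrdc2 rose from 3.43 ± 0.36 to 8.88 ± 1.2 FPKM (log2 difference 1.35, limma adjusted p = 4.06e-06) and was 8.40 ± 0.75 FPKM with both agents. Ndfip2 fell from 25.2 ± 0.95 to 20.8 ± 1.5 FPKM (-0.28, adjusted p = 0.037), a call lost under 8 of 20 alternatives. Txnip was higher at 41.7 ± 1.9 against 37.9 ± 0.68 FPKM (0.14, adjusted p = 0.0461), a call lost under 11. Arrdc1 (0.31, adjusted p = 0.0608) did not pass.

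**Figure D3:**
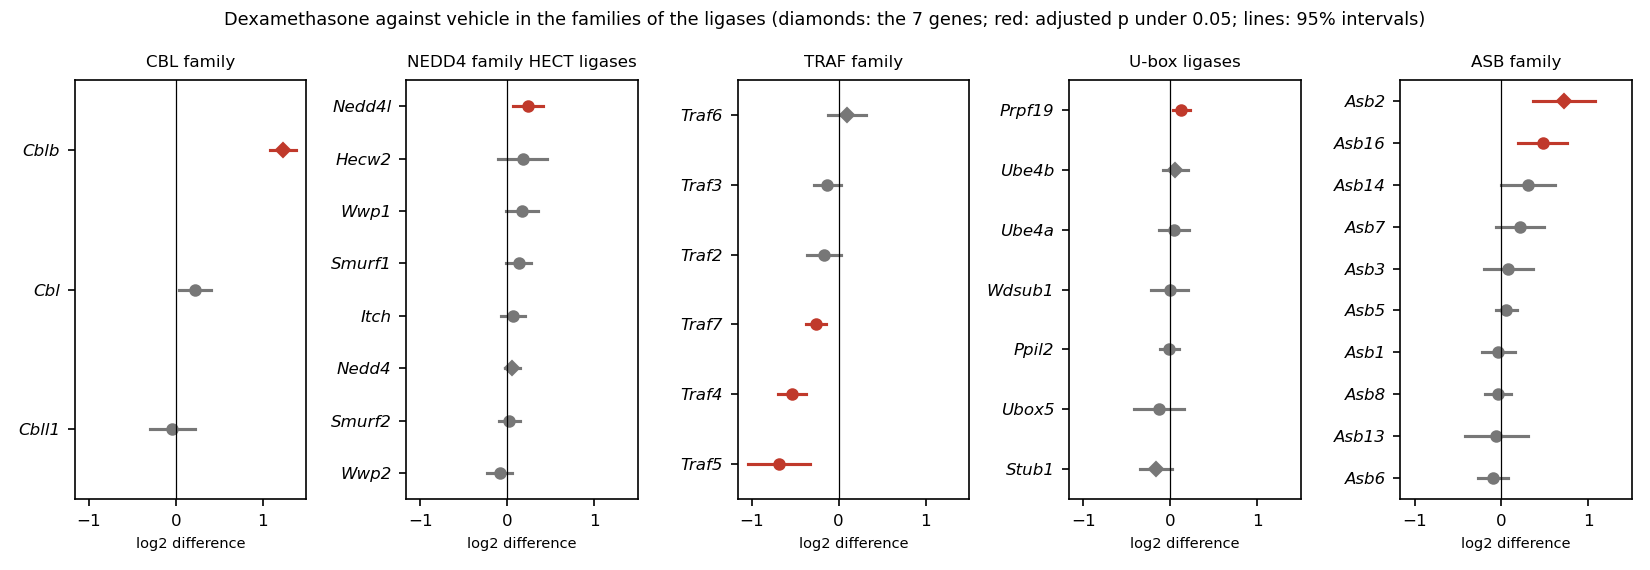
Log2 difference between dexamethasone and vehicle for each family gene in the table (points, with 95% intervals as lines), 1 panel per family, on a shared horizontal scale. Cblb, Asb2, Asb16, Nedd4l and Prpf19 are called higher, and Traf4, Traf5 and Traf7 lower, while Traf6 is not called.

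In the TRAF family, adaptors and ligases of tumour necrosis factor and Toll-like receptor signalling, 3 of 6 genes in the table were lower with dexamethasone and 0 higher. Traf4 fell from 81.4 ± 9.7 to 55.8 ± 1.2 FPKM (log2 difference -0.54, limma adjusted p = 0.000132). Traf5 fell from 4.60 ± 0.34 to 2.84 ± 0.43 FPKM (-0.68, adjusted p = 0.00683). Traf7 fell from 40.5 ± 2.3 to 33.7 ± 0.14 FPKM (-0.26, adjusted p = 0.00299). Traf6 and Traf2 (-0.17, adjusted p = 0.161) did not pass. The family's median was -0.22 against -0.05 for all genes.

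Of 19 partners of TRAF6, 0 were higher and 4 lower with dexamethasone. The lower genes encode kinases of the signalling chain in which TRAF6 acts. Irak1 fell from 23.4 ± 0.23 to 19.1 ± 1.1 FPKM (-0.29, limma adjusted p = 0.0091) and Irak2 from 4.29 ± 0.54 to 3.13 ± 0.094 FPKM (-0.43, adjusted p = 0.00977). Irak4 had a difference of -0.37 (adjusted p = 0.0258, lost under 5 of 19 alternatives) and the NF-kB kinase gene Ikbkb one of -0.21 (adjusted p = 0.0148, lost under 4 of 20). With both agents against vehicle 1 of the 19 was lower, and that was Irak1 (-0.21, adjusted p = 0.0468); the THSG contrast itself called 0 of 19. In that contrast the groups did not overlap for 8 of the 19, against the 13.3% given above for all genes, a count singled out after it was seen. The 2 genes with the smallest p there differed in opposite directions. Ube2v2, a ubiquitin-conjugating enzyme variant named after its value was seen, was 42.8 ± 3.8 FPKM with both agents against 50.1 ± 0.41 (-0.23, unadjusted p = 0.00518, limma adjusted p = 0.534). Irak2 was 4.01 ± 0.17 FPKM with both agents against 3.13 ± 0.094 (0.35, unadjusted p = 0.00856, limma adjusted p = 0.572).

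Of 7 U-box ligases 1 was higher and 0 lower. It was Prpf19, a splicing-associated ligase, at 64.5 ± 1.2 FPKM with vehicle and 70.7 ± 3.8 with dexamethasone (0.13, limma adjusted p = 0.0497), a call lost under 11 of 20 alternatives. Of 21 chaperone partners of CHIP listed, 11 were matched in the table by symbol or identifier. The HSP70 and HSP90 genes listed were not among those matched, so they have no values here. Of the 11, 1 was higher and 2 lower. The higher gene was Fkbp5, whose product sits in glucocorticoid receptor complexes, at 6.57 ± 0.21 and 97.8 ± 0.38 FPKM (3.88, adjusted p = 1.79e-13). Dnajb1, an HSP40 co-chaperone, fell from 20.4 ± 0.81 to 13.9 ± 0.25 FPKM (-0.55, adjusted p = 1.29e-05), and Fkbp4 from 46.1 ± 3.5 to 36.2 ± 0.35 FPKM (-0.34, adjusted p = 0.00109). Bag2, an inhibitor of CHIP, was not called (-0.19, adjusted p = 0.115).

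Around Ube4b, 15 genes of the VCP segregase and ubiquitin shuttle factors, with its substrate Trp53, were in the table, and 1 was higher and 2 lower with dexamethasone. Trp53 fell from 41.3 ± 1.2 to 35.2 ± 3.0 FPKM (-0.23, limma adjusted p = 0.0199), a call lost under 7 of 20 alternatives. Ubxn4 rose from 46.4 ± 1.1 to 51.9 ± 3.1 FPKM (0.16, adjusted p = 0.0309), a call lost under 6. Rad23b, a shuttle factor gene, was not called (-0.09, adjusted p = 0.119).

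Of 18 ASB genes listed, 10 were in the table, and 2 were higher and 0 lower with dexamethasone. Beside Asb2 this was Asb16, at 2.96 ± 0.38 and 4.14 ± 0.44 FPKM (0.47, limma adjusted p = 0.0137), lost under 2 of 19 alternatives. With both agents Asb16 was 4.32 ± 0.35 FPKM. ASB proteins work with a cullin 5 core, of which 10 genes were measured and 2 were lower. Elob, a gene of this core, fell from 234 ± 11 to 196 ± 9.4 FPKM (-0.26, limma adjusted p = 0.00512). With the GC and length trends removed, Elob fell by only 0.03. The NEDD8-conjugating gene Ube2m had a difference of -0.16 (adjusted p = 0.0391), lost under 13 of 20 alternatives, and 0.08 with those trends removed.

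Mul1 was read beside 10 mitochondrial ligase and mitophagy genes, itself included, of which 2 were higher and 1 lower with dexamethasone. Bnip3, a mitophagy receptor gene, rose from 27.8 ± 2.0 to 36.7 ± 2.7 FPKM (0.40, limma adjusted p = 0.000794). Fundc1, another receptor, was 17.8 ± 2.5 and 22.4 ± 1.5 FPKM (0.33, adjusted p = 0.0456), lost under 7 of 20 alternatives. Phb2 had a difference of -0.16 (adjusted p = 0.0444), lost under 14. Of 9 genes of mitochondrial fusion and fission 0 were called in either direction.

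The ligases' reported substrates were measured here as mRNA only, which says nothing of protein turnover. Of 24 such genes 7 were higher and 8 lower with dexamethasone. Irs1, the substrate of Cbl-b, fell from 21.9 ± 0.75 to 12.7 ± 0.59 FPKM (-0.78, limma adjusted p = 1.5e-06), and was 12.5 ± 0.41 FPKM with both agents. Irs2 rose from 5.10 ± 0.20 to 9.0 ± 0.22 FPKM (0.81, adjusted p = 7.43e-06). Pik3r1, a regulatory subunit of PI3-kinase that binds Cbl-b, rose from 14.3 ± 0.36 to 25.2 ± 1.8 FPKM (0.81, adjusted p = 9.61e-07). Foxo3, a forkhead factor that drives wasting genes, had a difference of 0.74 (adjusted p = 1.39e-06).

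For Asb2 the reported substrates are the filamins and desmin. Flna fell by 0.22 on the log2 scale (178 ± 4.7 to 154 ± 4.6 FPKM, limma adjusted p = 0.00316). The muscle filamin Flnc was 187 ± 13 and 181 ± 9.2 FPKM (-0.05, adjusted p = 0.586), and 0.02 with the GC and length trends removed. Des, desmin, was 875 ± 48 and 781 ± 37 FPKM (-0.16, adjusted p = 0.0405), lost under 15 of 20 alternatives. Mfn2, a mitofusin and substrate of MUL1, was 31.8 ± 1.4 and 32.1 ± 0.66 FPKM (0.01, interval -0.10 to 0.13, adjusted p = 0.879). Irs2, Flna, Flnc, Des and Mfn2 lie outside the rule for named genes and were chosen after their values had been seen.

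Beside the 7 genes stood 22 other ligases of muscle wasting, of which 10 were higher and 0 lower with dexamethasone. Over all genes, 12.7% were called higher and 20.9% lower. The median of these ligases was 0.13, against -0.05 for all genes. Fbxo32, which encodes atrogin-1, rose by 2.08, Trim63, which encodes MuRF1, by 0.69, Siah1a by 0.62 and Trim55 by 0.28 on the log2 scale. On the same scale Cblb, at 1.23, lay between Fbxo32 and Trim63, and Asb2, at 0.72, beside Trim63; differences between genes were not tested. One of the 10, Fbxo31 by its identifier, is listed under the symbol of another F-box gene. Among 31 ubiquitin, E1 and E2 genes 4 were higher and 5 lower. The mitotic E2 genes Ube2c (-1.48, limma adjusted p = 3.27e-06) and Ube2s (-0.41, adjusted p = 0.00018) fell, and Ube2g2 (0.36, adjusted p = 0.00033) and Ube2h (0.30, adjusted p = 0.000486) rose.

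The genes most like Cblb across the 9 libraries were Dtna, Tgfbr3 and Bcl2l1, with Pearson r of 0.997, 0.996 and 0.996 between log2 values, among the 8409 other genes whose mean reached 5 FPKM. Dtna encodes the dystrophin-associated protein dystrobrevin alpha, Tgfbr3 the TGF-beta co-receptor betaglycan and Bcl2l1 the survival factor BCL-XL. Dtna was 19.4 FPKM with vehicle and 51.4 with dexamethasone on average, Tgfbr3 3.67 and 12.6 FPKM, and Bcl2l1 30.5 and 54.3 FPKM. The genes most like Asb2 were Srpk3, a muscle-specific protein kinase gene (r = 0.978), Spire2, an actin nucleator gene (0.975), and Tmem87b (0.972). They rose by 0.41, 0.60 and 0.31 with dexamethasone on the log2 scale, against 0.72 for Asb2. For the other 5 members the closest genes reached r from 0.899 (Traf6) to 0.970 (Stub1). These r values describe 9 points in 3 groups, 6 of which share dexamethasone, and carry no test.

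**Figure D4:**
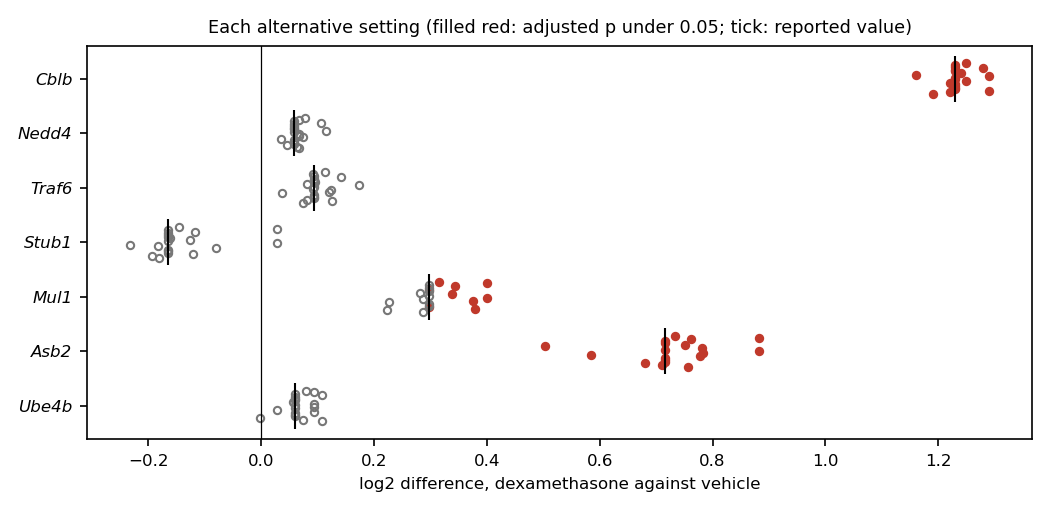
Log2 difference between dexamethasone and vehicle for each gene under every alternative setting (circles; filled where the adjusted p was under 0.05) with the reported value as a tick. Cblb stays between 1.16 and 1.29 and Asb2 between 0.50 and 0.88, Mul1 is called under 9 of 20 settings, and Stub1 changes sign once GC and length trends are removed.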

How the data were processed

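Per the labels' protocols, a Hybrid-R kit was used for RNA and a TruSeq stranded mRNA kit for libraries. Alignment and counting tools (STAR 2.7.10a and featureCounts) and the build GRCm39 (mm39) are named in the submitters' processing notes. The deposited table is named as counts but holds fractional values above 1, so the authors' values were taken to be FPKM; how they were made and filtered, and with which strand setting, is not given in the sources used here. No whole-read step was found, so depth is unknown and precision rests on the spread between replicates. The count test foreseen for counts was not used.

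The fit used limma 3.58.1 (R 4.3.3) on log2(FPKM + 0.1), with 1 mean per group over all 9 libraries, an intensity trend, two-sided tests and Benjamini-Hochberg adjustment over 10716 genes; a call is an adjusted p under 0.05. The code was tested on simulated data. Identifiers were matched to GENCODE gene names (10670 of 10716) and lists were read by symbol, or by identifier where the table has another symbol. Members, gene lists and the rule for named genes were chosen with earlier results of these data known. The rule takes all members, relatives in 5 families, at most 4 genes of a list, by p for dexamethasone against vehicle, the most abundant gene of each marker list and the 3 genes most correlated with each member; some genes that it takes are not reported here. The cell line field of the labels changes its number from sample to sample, and the titles, which all name C2C12, were followed. Alternatives covered pseudocount, filter, scaling, trend, groups fitted, replicate block, GC content and length (splines with 4 degrees of freedom) and each library left out.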

Additional observations from a re-analysis of the deposited data

How the results depend on the processing

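The calls of Cblb and Asb2 in both comparisons with vehicle held in every alternative in which they were tested; the filter at a mean of 5 FPKM removes Asb2 by its level, which leaves 1 member called in each of these comparisons. For the count over all genes, dexamethasone against vehicle gave 3601 calls and 3518 with the replicate block; libraries with the same number did not deviate together (correlations of -0.0862 to 0.107), so the numbers were not taken as pairs. The block by itself changed no call of a member. For THSG plus dexamethasone against dexamethasone, 1 gene (Rps2-ps10) was called with the replicate block, alone or with GC content and length correction, and between 0 and 1 (Cks2, without dexamethasone replicate 3) when single libraries were left out; both names were chosen after their values were seen. The share of higher genes among the calls for dexamethasone against vehicle was 37.8% as deposited, 49.6% by median ratios, 50.5% by quantiles and 51.9% with GC content and length corrected. For both agents against vehicle it was 41.5%, 50.9%, 49.8% and 52.4%. The count test listed as an alternative was not run because the values are not counts.

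Mul1 with dexamethasone against vehicle passed with equal sums (0.316), GC content and length correction (0.400, also with the replicate block), median-ratio scaling (0.344), only the 2 groups compared (0.297) and quantile normalization (0.338), and ranged from 0.223 to 0.380 with single libraries left out. Nedd4 with both agents against vehicle passed after GC content and length correction (0.0976, also with the replicate block). The following log2 differences, apart from that of Stub1 with both agents against vehicle when single libraries were left out, changed sign, and none was called where it did; of these differences only that of Ube2m was called as reported. After GC content and length correction, with or without the replicate block, the difference became 0.0279 for Stub1 and 0.0758 for Ube2m and 0.0223 for Flnc (dexamethasone against vehicle), 0.00721 for Traf6 (both agents against vehicle) and -0.00354 for Ube4b (THSG contrast). Traf6 with both agents against vehicle was 0.0240 by median ratios and 0.0563 by quantiles, and Flnc was 0.00057 with median-ratio scaling. Nedd4 in the THSG contrast was -0.000967 with equal sums and -0.00886 with quantile normalization. With single libraries left out, the THSG contrast ran from -0.154 to 0.112 for Asb2, from -0.000577 to 0.0384 for Nedd4, from -0.121 to 0.0300 for Stub1 and from -0.0124 to 0.0530 for Ube4b. Both agents against vehicle then ran from -0.0826 to 0.130 for Mul1, from -0.281 to -0.150 for Stub1, where 1 omission passed, and from -0.0943 to 0.0346 for Traf6. Dexamethasone against vehicle ran from -0.000977 to 0.108 for Ube4b, from -0.0236 to 0.0346 for Mfn2 and from -0.0959 to 0.00184 for Flnc. The causes were not tested. Depth is unknown, so no limit from counting error can be given.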
